A study of Mus musculus with 60 samples.

Results

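The genes described here are 41 members of the non-opioid neuropeptide systems in the mouse dentate gyrus (DG): 15 peptide precursors, 22 peptide receptors, the CRH binding protein *Crhbp*, and 3 proteins of the secretory granule (*Chgb*, *Scg2* and *Resp18*). They were taken by name from a fixed list, which was chosen with earlier results of these data known. In each sample 46480 genes were counted, of which 45968 had a symbol. RNA-Seq was made from whole-tissue punches of the dorsal and ventral DG of male C57BL6J mice killed at 80 days of age. The mice were weaned on day 22 and then kept for 8 weeks either in standard housing (SH, 3 males to a cage) or in an enriched environment (EE, 12 males in a larger cage with toys and running wheels that were changed weekly). The 4 groups were thus dorsal and ventral DG, each with SH and EE. Each sample pooled 10 to 12 mice, and the dorsal and ventral samples with the same replicate number came from the same pool. SH replicate 3 was left out of both regions, which leaves 18 samples from 9 pools, 4 of SH and 5 of EE.

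Neuropeptides are cut from larger precursors inside dense core vesicles and are released more slowly and over longer distances than fast transmitters. Nearly all of them act on G protein-coupled receptors. In the DG, peptides such as somatostatin, NPY, CCK and VIP are classic markers of GABA interneurons, and hilar somatostatin and NPY cells send their axons to the dendrites of granule cells, the principal neurons of this region. The tissue held several types of neuron and glia. In bulk RNA a smaller number of cells of a type and less RNA in each cell cannot be told apart, and this applies to each level given below.

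Counts on genes ranged from 22919364 to 28301861 fragments per sample. The labelled tissue carried its defining markers: the summed level of 6 granule cell genes was 1139 ± 42.5 in dorsal SH, 1093 ± 48.6 in dorsal EE, 651 ± 37.5 in ventral SH and 602 ± 82.04 in ventral EE, in CPM, the count of a gene scaled to library size by TMM. Other marker lists also differed by region. All 12 choroid plexus markers were called higher in ventral DG, with summed levels of 28.1 to 221 CPM over the dorsal samples and 407 to 1494 CPM over the ventral samples. The summed level of 4 hilar mossy cell markers ranged from 59.4 to 76.4 CPM in dorsal and from 179 to 205 CPM in ventral DG. Of these 4, *Drd2* was not called, and its log2 fold change, dorsal minus ventral, was 0.24 ± 0.16 (SE). A list of 14 GABA interneuron markers that holds no member ranged from 962 to 1146 CPM in dorsal and from 1026 to 1233 CPM in ventral DG, with 0 of the 14 called higher in dorsal and 5 called higher in ventral. In no group was a marker of these lists at 0 in all samples.

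The level in TPM, which is scaled for transcript length and library size, spanned more than 3 orders of magnitude across the members. *Cck*, the cholecystokinin precursor, was highest at 165 ± 27.3 TPM (mean ± SD over the 18 samples), followed by the granin *Chgb* at 112 ± 35.3 TPM, the somatostatin precursor *Sst* at 72.8 ± 21.3 TPM, the granin *Scg2* at 54.9 ± 13.3 TPM and *Npy* at 37.6 ± 9.40 TPM. These SDs include the differences between regions and housing conditions, and the mean ± SD of neighbours in this order overlap. Whether neighbours change order within a sample was not examined. The receptor with the highest level was *Ntsr2*, a neurotensin receptor, at 28.9 ± 2.97 TPM, ahead of the PACAP receptor *Adcyap1r1* at 19.7 ± 4.16 TPM and the presynaptic NPY receptor *Npy2r* at 14.3 ± 3.92 TPM. At the other end, *Ntsr1*, *Tacr1*, *Galr1* and *Avpr1a* had mean levels of 0.0811, 0.0561, 0.0467 and 0.0411 TPM. The TRH precursor *Trh* had 0 to 5 counts in any of the 18 samples and was the 1 member of 41 that did not pass the count filter (more than 10 counts in at least 2 samples). So the receptor of TRH was measured in this tissue at up to 3.23 TPM while its ligand was at or near 0.

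**Figure D1:**
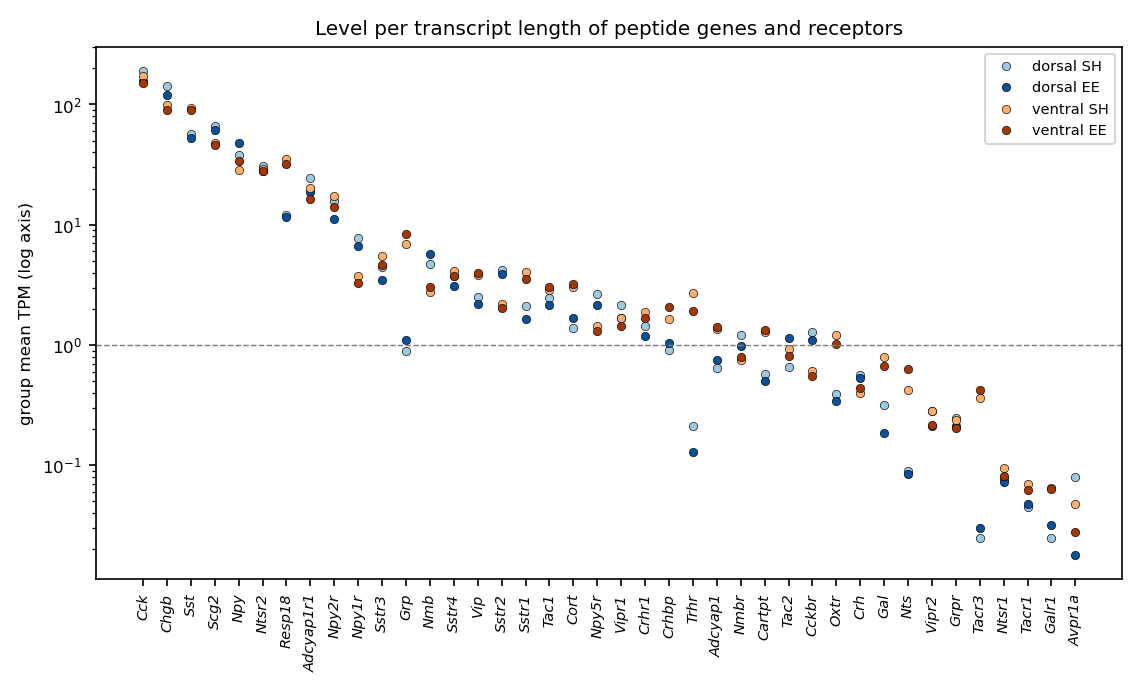
Mean TPM of each group on a log axis for the 40 tested members, ordered by their mean over the 18 samples, with 1 point per region and housing condition and a dashed line at 1 TPM. *Cck* is highest and *Avpr1a* lowest, and the points of *Grp*, *Trhr*, *Tacr3* and *Nts* split widely by region.

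Promoter windows of 5 members are shown because these genes carry the housing result (*Npy* and *Nmb*) or hold the cyclic AMP response element, a DNA element well known from peptide gene promoters, on both sides of the regional result (*Sst* and *Cartpt*, higher in ventral DG, and *Scg2*, higher in dorsal DG). Each window runs from 250 bases before to 50 bases after the RefSeq start site on build GRCm38.p6, and is written 5′ to 3′ on the strand of the gene. Capitals mark a cyclic AMP response element (CRE, TGACGTCA) or an AP-1 site (TGACTCA or TGAGTCA), searched on both strands.
*Npy* (chr6:49822460-49822759, plus strand): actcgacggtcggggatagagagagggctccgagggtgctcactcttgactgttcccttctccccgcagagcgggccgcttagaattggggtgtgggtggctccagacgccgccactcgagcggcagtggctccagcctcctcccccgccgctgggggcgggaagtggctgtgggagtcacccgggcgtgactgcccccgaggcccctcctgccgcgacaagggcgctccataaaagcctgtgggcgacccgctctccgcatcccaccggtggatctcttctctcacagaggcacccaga
*Nmb* (chr7:80905013-80905312, minus strand): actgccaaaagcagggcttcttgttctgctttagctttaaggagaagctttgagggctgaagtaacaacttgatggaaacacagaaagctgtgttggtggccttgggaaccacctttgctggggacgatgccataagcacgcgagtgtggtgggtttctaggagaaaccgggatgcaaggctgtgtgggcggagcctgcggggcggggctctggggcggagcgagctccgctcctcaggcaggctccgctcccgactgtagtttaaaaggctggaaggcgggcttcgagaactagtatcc
*Sst* (chr16:23890795-23891094, minus strand): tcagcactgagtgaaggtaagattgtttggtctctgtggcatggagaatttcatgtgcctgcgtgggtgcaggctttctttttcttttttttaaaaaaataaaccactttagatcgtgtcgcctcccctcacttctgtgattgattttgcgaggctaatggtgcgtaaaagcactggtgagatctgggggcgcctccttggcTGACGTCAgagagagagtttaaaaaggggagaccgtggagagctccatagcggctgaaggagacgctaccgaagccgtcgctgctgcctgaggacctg
*Cartpt* (chr13:99900634-99900933, minus strand): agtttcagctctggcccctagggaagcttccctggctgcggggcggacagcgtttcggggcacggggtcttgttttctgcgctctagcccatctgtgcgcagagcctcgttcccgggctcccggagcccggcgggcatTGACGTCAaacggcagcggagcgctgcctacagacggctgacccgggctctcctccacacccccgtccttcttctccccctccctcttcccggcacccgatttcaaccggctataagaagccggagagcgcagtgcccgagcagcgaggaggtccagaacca
*Scg2* (chr1:79439977-79440276, minus strand): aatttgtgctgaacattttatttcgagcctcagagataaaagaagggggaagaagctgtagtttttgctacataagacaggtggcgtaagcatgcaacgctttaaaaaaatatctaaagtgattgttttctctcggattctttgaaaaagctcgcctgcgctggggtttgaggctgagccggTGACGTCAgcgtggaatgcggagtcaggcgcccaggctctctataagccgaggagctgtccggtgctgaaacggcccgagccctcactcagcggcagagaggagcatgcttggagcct

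Windows were found for 36 of the 41 members. A CRE was in the windows of 5 of these 36 members, *Sst*, *Cartpt*, *Scg2*, *Chgb* and *Sstr2*, which is 13.9% of them, and in 588 of all 32851 windows of the same length (1.79%). Its first base lay 48 bases before the start site in *Sst*, 58 in *Sstr2*, 68 in *Scg2*, 72 in *Chgb* and 112 in *Cartpt*. An AP-1 site was in the windows of *Npy1r* and *Nts*, 5.56% of the members with a window, and in 5.20% of all windows. Neither motif was in the windows of *Npy* or *Nmb*. A match gives only the letters in the window and was not tested as a binding site.

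To ask how the members differ between the poles of the DG, dorsal samples were compared with ventral samples of both housing conditions together. A gene was called when its joint test passed a false discovery rate (FDR) of 0.05 and the mean log2 fold change, dorsal minus ventral, was more than 20% in size. Of the 40 members tested, 31 were called, 22 higher in ventral DG and 9 higher in dorsal DG. Over all 17040 genes tested, 30.9% were called, 15.9% higher in ventral and 15.0% higher in dorsal DG. The members were chosen with earlier results of these data known, so the distance from these shares is not independent evidence. Among the peptide precursors 9 were higher in ventral and 2 in dorsal DG, and among the receptors 11 were higher in ventral and 5 in dorsal. The median log2 fold change of the tested members was -0.46, beside -0.0046 over all genes tested. *Tacr3* and *Galr1* had more than 10 counts in ventral samples alone, and *Nts* in 1 dorsal and 8 ventral samples, so these 3 members could be tested only because of their ventral level.

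Differences of more than 2-fold were found in 13 members, all higher in ventral DG, beside 4.85% of all tested genes with a called difference of that size. These members include *Tacr3*, *Nts* and *Galr1*, which could be tested only because of their ventral level. The dorsal and ventral samples did not overlap for 20 of the 40 members, *Tacr3* among them, beside 18.9% of all tested genes. Within SH alone 27 members were called, beside 28.3% of all tested genes, and within EE alone 28 were called, beside 29.8%. Of these, 25 were called in both. The SH and EE comparisons use different pools.

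**Figure D2:**
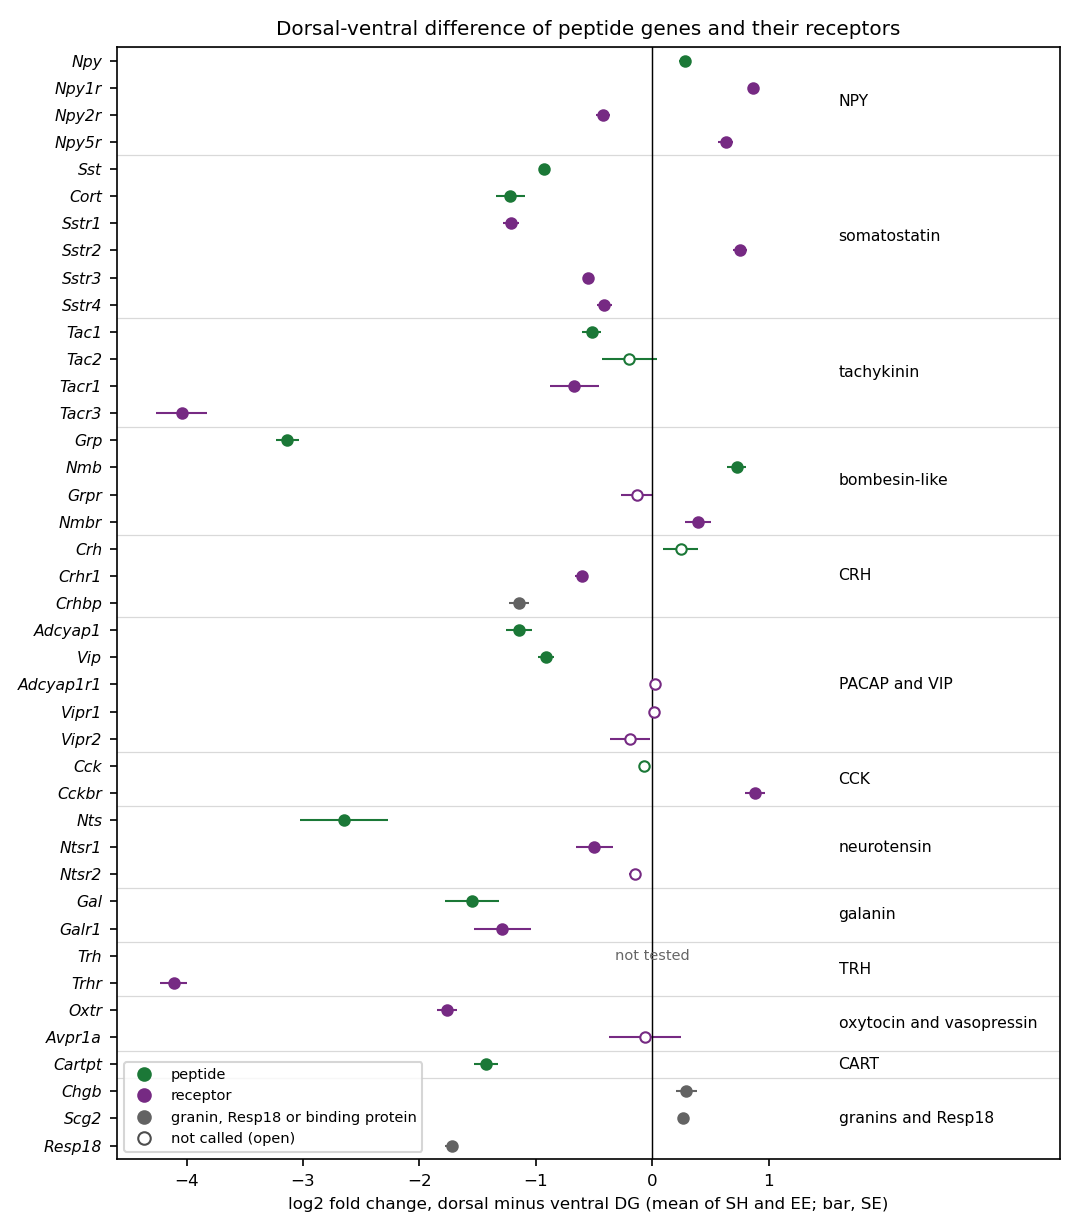
Log2 fold change, dorsal minus ventral DG, of each tested member grouped by peptide system (points, mean of the SH and EE differences; bars, SE; open points were not called). Points reach from -4.11 for *Trhr* to 0.88 for *Cckbr*, and several systems hold members on both sides of 0.

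Among the peptide precursors, *Grp* differed most. It encodes gastrin-releasing peptide, a bombesin-like peptide that excites its target neurons. In dorsal DG *Grp* was at 1.11, 0.946, 1.54 and 1.56 CPM in SH replicates 1, 2, 4 and 5 and at 1.55, 1.82, 2.195, 2.53 and 2.45 CPM in EE replicates 1 to 5, and values below are listed in the same order. In ventral DG it was at 12.2, 14.1, 11.1 and 12.7 CPM in SH and 17.1, 16.7, 13.8, 17.2 and 18.9 CPM in EE. Each ventral sample was far above each dorsal sample, and the log2 fold change was -3.13 ± 0.096 (SE; adjusted p = 2.70e-16). Its relative *Nmb*, the neuromedin B precursor, went the other way and was at 3.35 ± 0.259 CPM (mean ± SD) in dorsal SH, 4.79 ± 0.335 in dorsal EE, 2.31 ± 0.326 in ventral SH and 2.55 ± 0.338 in ventral EE, with a log2 fold change of 0.72 ± 0.081 (SE; adjusted p = 1.50e-07). So the pair of bombesin-like precursors was called in opposite directions.

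*Nts*, the neurotensin precursor, was low throughout. Its dorsal values were 0.143, 0.329, 0.0854 and 0.223 CPM in SH and 0.405, 0.166, 0.0407, 0.163 and 0.2098 CPM in EE, which rest on 1 to 11 counts per sample. The ventral values were 0.777, 0.301, 1.34 and 1.32 CPM in SH and 0.971, 3.396, 1.998, 1.65 and 0.815 CPM in EE. Ventral SH replicate 2 lay within the dorsal range and the other 8 ventral samples lay above it, with a log2 fold change of -2.65 ± 0.38 (SE; adjusted p = 6.23e-06).

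*Gal* encodes galanin, an inhibitory peptide. It was at 0.323, 0.576, 0.555 and 0.261 CPM in dorsal SH and 0.184, 0.414, 0.163, 0.326 and 0.245 CPM in dorsal EE. In ventral DG it was at 0.812, 0.939, 1.297 and 1.096 CPM in SH and 0.893, 0.724, 0.431, 1.46 and 1.19 CPM in EE. *Gal* had more than 10 counts in 2 dorsal and 9 ventral samples. The regions overlapped through ventral EE replicate 3, yet the ventral sample was the higher one in 9 of 9 pools. The log2 fold change was -1.55 ± 0.23 (SE; adjusted p = 2.50e-05).

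*Cartpt*, the precursor of the CART peptides, had dorsal values of 0.968, 1.03, 0.982 and 1.01 CPM in SH and 1.22, 0.87, 0.976, 0.856 and 0.979 CPM in EE. Its ventral values were 2.08, 2.33, 2.796 and 2.56 CPM in SH and 3.07, 2.4, 3.29, 3.35 and 2.52 CPM in EE. The samples of the regions did not overlap, and the log2 fold change was -1.43 ± 0.10 (SE; adjusted p = 3.42e-10).

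*Cort*, which encodes cortistatin, a relative of somatostatin that binds the same receptors, was at 1.08, 1.93, 1.49 and 1.23 CPM in dorsal SH and 1.84, 1.91, 1.79, 2.895 and 1.68 CPM in dorsal EE. Ventral values were 3.04, 3.72, 3.69 and 3.73 CPM in SH and 4.39, 5.57, 3.72, 4.65 and 3.705 CPM in EE. The highest dorsal value, in EE replicate 4, stayed below the lowest ventral value, in SH replicate 1. The log2 fold change was -1.22 ± 0.12 (SE; adjusted p = 7.66e-08).

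*Adcyap1* encodes PACAP, a peptide that raises cyclic AMP in neurons. It was at 2.98, 2.92, 2.39 and 2.08 CPM in dorsal SH and 3.87, 3.98, 3.58, 3.14 and 3.08 CPM in dorsal EE. In ventral DG the values were 5.62, 6.76, 6.44 and 6.32 CPM in SH and 7.92, 6.84, 4.47, 8.86 and 7.56 CPM in EE. The lowest ventral sample, EE replicate 3, was above the highest dorsal sample, and the log2 fold change was -1.15 ± 0.11 (SE; adjusted p = 3.62e-08).

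The remaining peptide precursors differed less by region. *Sst*, the marker of dendrite-targeting hilar interneurons, had means of 48.9 ± 2.44 CPM in dorsal SH, 54.03 ± 2.39 in dorsal EE, 94.95 ± 4.09 in ventral SH and 101 ± 5.66 in ventral EE, with a log2 fold change of -0.93 ± 0.035 (SE; adjusted p = 8.36e-15). *Vip*, made by interneurons that mostly contact other interneurons, had a log2 fold change of -0.91 ± 0.066 and *Tac1*, the substance P precursor, one of -0.52 ± 0.085, both called. *Npy* was called in the dorsal direction at 0.28 ± 0.049, a difference that lost its call without EE replicate 3 or without SH replicate 2. This value is a mean of both housing conditions, and *Npy* passed the 20% limit within EE but not within SH. *Cck* at -0.073 ± 0.039, *Crh* at 0.24 ± 0.15 and *Tac2*, the neurokinin B precursor, at -0.20 ± 0.24 were not called. The 14 interneuron markers did not move as one. Those called higher in ventral DG numbered 5 and included *Htr3a* and *Dlx1*. *Lhx6*, *Erbb4* and *Nxph1* passed the FDR in the ventral direction but not the 20% limit, at -0.23 ± 0.062, -0.24 ± 0.055 and -0.19 ± 0.045. By contrast, *Gad1* and *Reln* did so in the dorsal direction, at 0.21 ± 0.062 and 0.20 ± 0.058, and the median of the list was -0.21. The part of interneuron content in the differences of *Sst*, *Vip* and *Cort* was not tested.

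**Figure D3:**
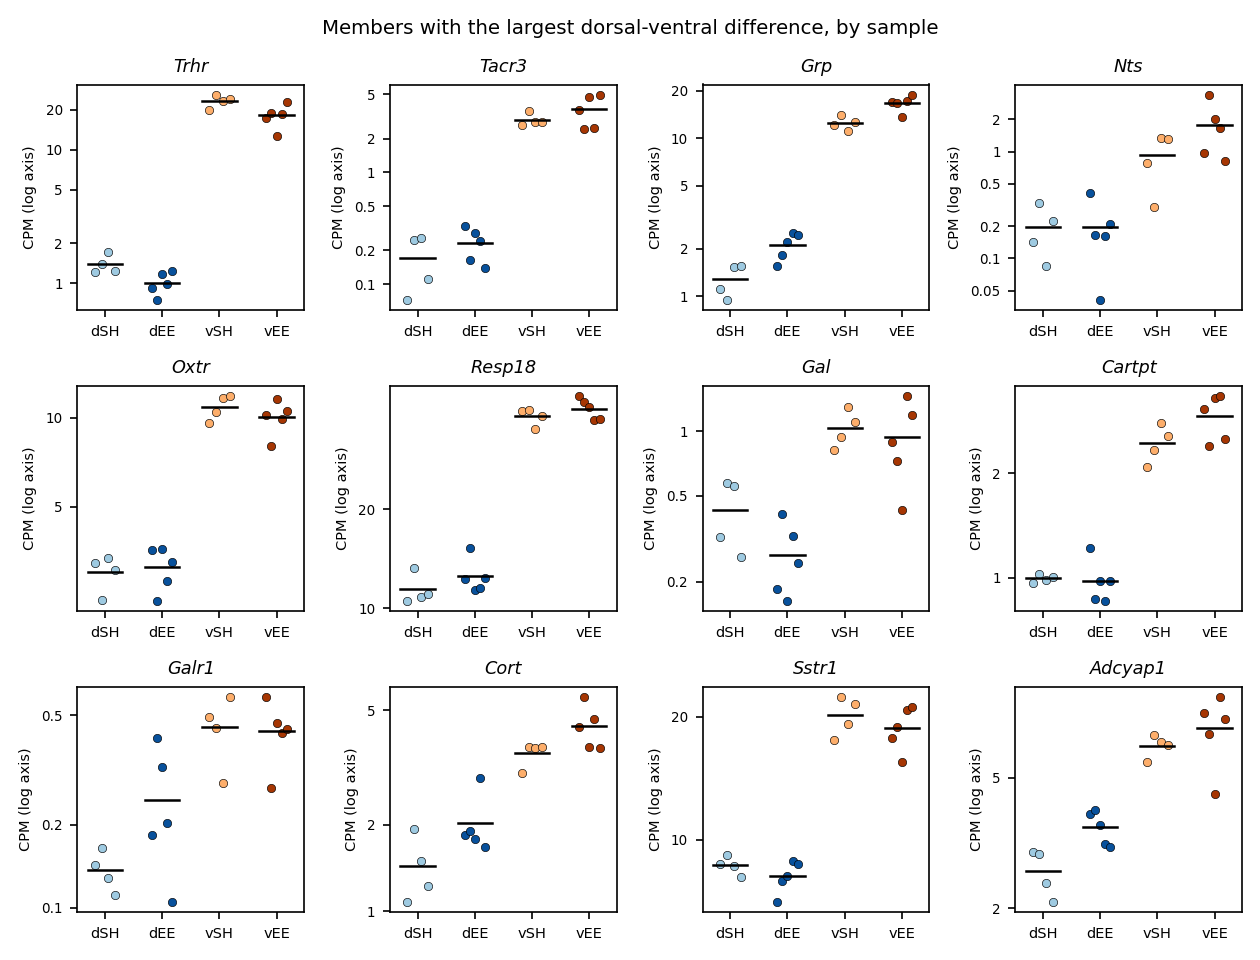
CPM on a log axis of the 12 members with the largest called regional difference, with 1 point per sample and a bar at the group mean (dSH, dorsal SH; dEE, dorsal EE; vSH, ventral SH; vEE, ventral EE). Dorsal and ventral points are separate in each panel except those of *Nts*, *Gal* and *Galr1*.

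Of the 40 tested members, the receptors *Trhr* and *Tacr3* had the largest differences. *Trhr*, a receptor that couples TRH to calcium release, was at 1.22, 1.399, 1.71 and 1.23 CPM in dorsal SH and 0.921, 0.746, 1.18, 0.979 and 1.22 CPM in dorsal EE. In ventral DG it was at 20.02, 25.8, 23.1 and 23.9 CPM in SH and 17.4, 18.97, 12.7, 18.4 and 23.01 CPM in EE. No dorsal sample came near a ventral one, and the log2 fold change was -4.11 ± 0.12 (SE; adjusted p = 1.50e-16), a 17.3-fold difference.

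*Tacr3*, the NK3 receptor, whose preferred ligand is neurokinin B, had dorsal values of 0.0717, 0.247, 0.256 and 0.112 CPM in SH and 0.331, 0.166, 0.285, 0.245 and 0.1399 CPM in EE, which rest on 2 to 9 counts per sample. Its ventral values were 2.68, 3.53, 2.84 and 2.85 CPM in SH and 3.65, 2.45, 4.78, 2.48 and 4.96 CPM in EE, on 54 to 134 counts. The regions did not overlap, and the log2 fold change was -4.04 ± 0.22 (SE; adjusted p = 2.85e-12). *Tacr1*, the NK1 receptor for substance P, was also called higher in ventral DG at -0.67 ± 0.21, with the regions overlapping, and it lost that call without EE replicate 3 or 5 or SH replicate 1 or 2.

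*Oxtr*, the oxytocin receptor, was at 3.23, 2.43, 3.37 and 3.05 CPM in dorsal SH and 3.57, 2.403, 3.62, 2.81 and 3.25 CPM in dorsal EE. Its ventral values were 9.57, 10.5, 11.7 and 11.9 CPM in SH and 10.2, 8.06, 11.6, 9.92 and 10.5 CPM in EE. Each ventral sample was at more than 8 CPM while no dorsal sample exceeded 3.62 CPM, and the log2 fold change was -1.77 ± 0.085 (SE; adjusted p = 4.32e-13). The vasopressin receptor *Avpr1a* was near its detection limit, with 1 to 15 counts per sample, and was not called at -0.063 ± 0.31.

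*Galr1*, an inhibitory galanin receptor, rested on 3 to 10 counts per sample in dorsal DG. Its dorsal values were 0.143, 0.165, 0.128 and 0.112 CPM in SH and 0.184, 0.414, 0.325, 0.204 and 0.105 CPM in EE. In ventral DG they were 0.494, 0.451, 0.284 and 0.585 CPM in SH and 0.582, 0.272, 0.4702, 0.433 and 0.445 CPM in EE. Dorsal EE replicates 2 and 3 lay inside the ventral range, the ventral sample was higher in 8 of 9 pools, and the log2 fold change was -1.29 ± 0.25 (SE; adjusted p = 4.70e-04).

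*Sstr1* is one of 4 somatostatin receptors among the members, all of which inhibit the cell that carries them. It was at 8.71, 9.17, 8.63 and 8.12 CPM in dorsal SH and 7.03, 7.91, 8.17, 8.89 and 8.74 CPM in dorsal EE. Its ventral values were 17.5, 22.4, 19.2 and 21.5 CPM in SH and 17.7, 18.9, 15.5, 20.8 and 21.1 CPM in EE. The samples of the regions did not overlap, and the log2 fold change was -1.21 ± 0.065 (SE; adjusted p = 2.85e-12). *Sstr3*, found on neuronal cilia, and *Sstr4* were called higher in ventral DG too, at -0.55 ± 0.035 and -0.41 ± 0.067. *Sstr2* was called in the other direction at 0.75 ± 0.057, from group means of 15.4 ± 1.11 CPM in dorsal SH and 17.3 ± 1.52 in dorsal EE to 9.53 ± 0.637 in ventral SH and 9.79 ± 1.02 in ventral EE. *Sst*, *Cort* and 3 of the 4 somatostatin receptors among the members were higher in ventral DG, and the other in dorsal DG.

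The NPY receptors were split by type. *Npy1r*, mostly a postsynaptic receptor, had group means of 44.7 ± 4.098 CPM in dorsal SH, 46.3 ± 3.001 in dorsal EE, 25.5 ± 0.4596 in ventral SH and 24.5 ± 1.79 in ventral EE, with a log2 fold change of 0.86 ± 0.045 (SE; adjusted p = 1.26e-12). *Npy5r* was called in the same direction at 0.63 ± 0.065. Both lie on chromosome 8 and are read outward from a shared interval of 9063 bases (*Npy5r* on the minus strand, *Npy1r* on the plus strand), the closest pair of members in the genome. *Npy2r*, mostly a presynaptic receptor that restrains release, was called in the ventral direction at -0.42 ± 0.063. Its dorsal and ventral samples overlapped, but the ventral sample was higher in 9 of 9 pools.

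In the other systems, *Cckbr*, the brain CCK receptor, had the largest called difference of a member in the dorsal direction at 0.88 ± 0.087 while its ligand gene *Cck* was not called. *Nmbr*, the neuromedin B receptor, was called higher in dorsal DG at 0.40 ± 0.11, in the direction of *Nmb*, and *Grpr*, the receptor for gastrin-releasing peptide, was not called at -0.13 ± 0.14. *Crhr1*, the main brain receptor for the stress peptide CRH, was higher in ventral DG at -0.61 ± 0.052. *Ntsr1* was called at -0.50 ± 0.16 with an adjusted p of 0.0337 and lost its call with the pool as a block, at an adjusted p of 0.0626. Members called higher in ventral DG numbered 20 to 22 when a pool was left out, beside 22 in the main analysis. The *Ntsr1* call is near the limit and may depend on single pools, but these totals do not show which member was lost. *Adcyap1r1*, *Vipr1* and *Vipr2*, which bind PACAP and VIP, were not called, at 0.020 ± 0.036, 0.012 ± 0.044 and -0.19 ± 0.17, although both of their ligand genes were higher in ventral DG. *Ntsr2* passed the FDR at -0.15 ± 0.050 but not the 20% limit.

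Genes of the granule and of peptide binding also differed. *Resp18*, a protein of the regulated secretory pathway, was at 10.5, 13.3, 10.8 and 11.02 CPM in dorsal SH and 12.3, 15.2, 11.3, 11.5 and 12.4 CPM in dorsal EE. Its ventral values were 39.8, 40.2, 35.1 and 38.4 CPM in SH and 44.3, 42.4, 40.99, 37.3 and 37.7 CPM in EE. The regions were wide apart, and the log2 fold change was -1.72 ± 0.057 (SE; adjusted p = 9.18e-16). The granins *Chgb* and *Scg2*, which fill dense core vesicles, were called in the dorsal direction, at 0.29 ± 0.090 and 0.27 ± 0.046, and each was higher in dorsal in 9 of 9 pools. Both are near the 20% limit. *Chgb* lost its call without EE replicate 1, 2 or 5 or SH replicate 1, and *Scg2* without EE replicate 2 or 3 or SH replicate 1 or with unstranded counts. *Crhbp*, which binds CRH outside the cell, was higher in ventral DG with a log2 fold change of -1.14 ± 0.084 (SE; adjusted p = 4.33e-10), in the direction of *Crhr1*, while *Crh* itself was not called.

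Granule cell markers were called in the dorsal direction for 5 of 6 genes and mossy cell markers in the ventral direction for 3 of 4, and the choroid plexus list in the ventral direction for 12 of 12. Of 5 markers of CA3 pyramidal cells, which adjoin the hilus, 3 were called in the ventral and 1 in the dorsal direction, with summed levels of 246 to 279 CPM in dorsal and 321 to 363 CPM in ventral DG. Of the 8 tested markers of the habenula and thalamus 4 were called in the dorsal direction. Of 4 CA1 markers 2 were called in each direction. These lists thus held regional differences of their own, in both directions. Their part in the regional results above was not tested.

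To ask which members respond to enrichment, EE was compared with SH within each region. In dorsal DG 2 of the 40 members were called, *Npy* and *Nmb*, both higher in EE, beside 0.634% of all tested genes. In ventral DG 1 member was called, *Npy*, also higher in EE, beside 0.241%. The SH and EE samples of dorsal DG did not overlap for 4 members (*Npy*, *Nmb*, *Adcyap1* and *Adcyap1r1*), beside 3.99% of all tested genes. In ventral DG they did not overlap for 3 members (*Npy*, *Crhbp* and *Sstr3*), beside 2.45%. An unadjusted p under 0.05 was found for 15 of the 40 members in dorsal DG, beside 8.81% of all tested genes, and for 8 in ventral DG, beside 7.58%.

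*Npy* encodes neuropeptide Y, an inhibitory peptide of hilar interneurons that is induced by neuronal activity. In dorsal DG it was at 28.3, 32.8, 30.4 and 31.2 CPM in SH and 39.7, 44.2, 49.5, 51.99 and 47.4 CPM in EE. Each EE sample was above each SH sample. The log2 fold change was 0.60 ± 0.069 (SE; adjusted p = 4.0e-05), a rise of 51.8%.

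In ventral DG *Npy* was at 27.2, 26.9, 27.8 and 26.7 CPM in SH, a narrow range, and at 33.6, 38.2, 32.8, 39.7 and 34.97 CPM in EE. Again no EE sample was as low as an SH sample. The log2 fold change was 0.40 ± 0.070 (SE; adjusted p = 0.00846), a rise of 31.9%. In dorsal DG the call held without any single pool. In ventral DG it was lost at an adjusted p of 0.0522 without SH replicate 4 and 0.0527 without SH replicate 5, with log2 fold changes of 0.41 and 0.39. In the excluded SH replicate 3 the dorsal sample had 27.04 CPM and the ventral sample 25.1 CPM, below each EE sample of its region.

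The receptors of NPY were not called for housing. *Npy1r* had log2 fold changes, EE minus SH, of 0.050 ± 0.061 in dorsal and -0.058 ± 0.066 in ventral DG, *Npy5r* of 0.0017 ± 0.088 and -0.020 ± 0.096, and *Npy2r* of -0.24 ± 0.089 and -0.18 ± 0.088. Of the other interneuron peptides, *Sst* had log2 fold changes of 0.14 ± 0.051 in dorsal and 0.090 ± 0.049 in ventral DG, and *Vip* of 0.057 ± 0.099 and 0.22 ± 0.087, none of them called. *Cort* was nearer to *Npy* in size, at 0.50 ± 0.19 and 0.31 ± 0.15, and was not called either. Whether these effects differ from that of *Npy* was not tested. The summed GABA interneuron markers were 1115 ± 40.95 in dorsal SH and 1042 ± 61.3 in dorsal EE, and 1141 ± 85.7 in ventral SH and 1124 ± 51.6 in ventral EE, so this sum was not higher in EE in the mean of either region. Of its 14 genes, *Nos1*, the neuronal nitric oxide synthase, was called in dorsal DG, where it fell by 0.36 ± 0.084 on the log2 scale.

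*Nmb* was at 3.19, 3.33, 3.16 and 3.72 CPM in dorsal SH and 4.42, 5.05, 4.59, 5.22 and 4.65 CPM in dorsal EE. The EE samples were again all above the SH samples. The log2 fold change was 0.51 ± 0.11 (SE; adjusted p = 0.0208), a rise of 42.5%. Without EE replicate 4 the adjusted p was 0.0577, and without SH replicate 1, 2 or 4 it was 0.0866, 0.0853 and 0.0991, while the call held when any of the other 5 pools was left out. In ventral DG *Nmb* was at 2.65, 2.22, 2.47 and 1.9 CPM in SH and 2.68, 2.72, 2.47, 2.87 and 2.001 CPM in EE. These ranges overlapped, and the log2 fold change was 0.14 ± 0.12 (SE; adjusted p = 0.843). SH replicate 3, left out of the test, was at 3.97 CPM in dorsal DG, above the other 4 SH samples and below the 5 EE samples. Its receptor *Nmbr* had log2 fold changes of -0.13 ± 0.15 in dorsal and 0.16 ± 0.16 in ventral DG, neither called.

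**Figure D4:**
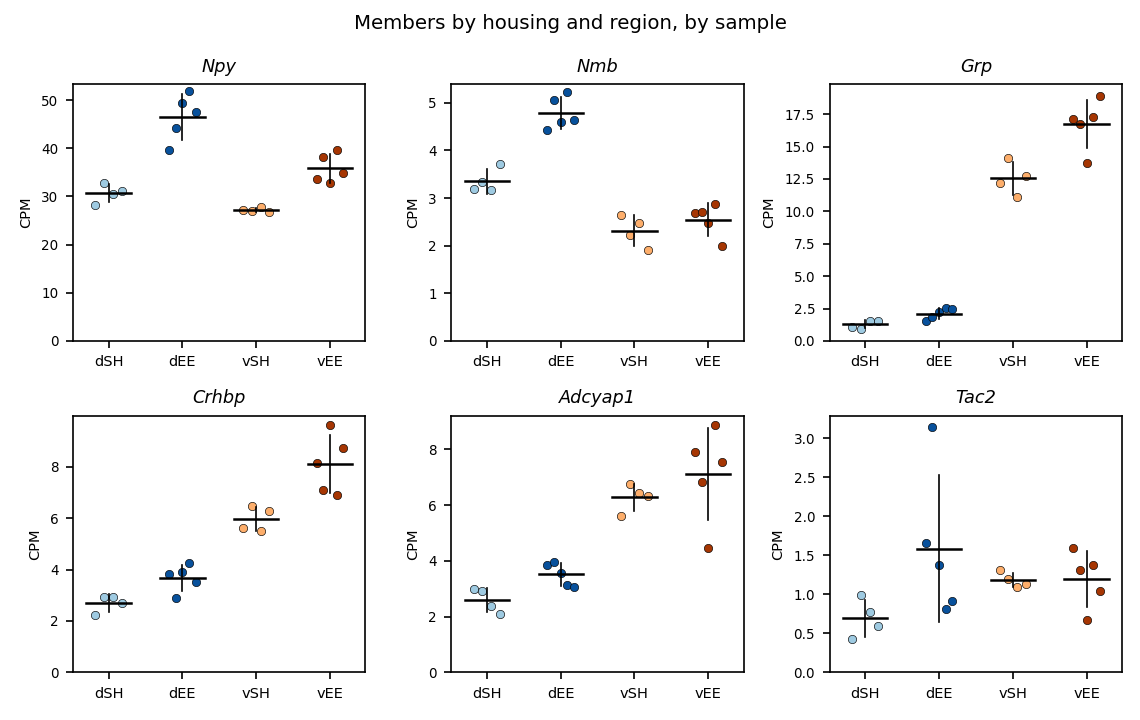
CPM of *Npy*, *Nmb*, *Grp*, *Crhbp*, *Adcyap1* and *Tac2* by group (points, samples; horizontal bar, mean; vertical bar, SD; 4 samples in SH and 5 in EE). Points of *Npy* separate SH from EE in both regions and those of *Nmb* in dorsal DG, and a single dorsal EE sample of *Tac2* stands at 3.15 CPM.

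Several members came close to the limit. *Grp* had group means of 1.29 ± 0.309 CPM in dorsal SH and 2.11 ± 0.417 in dorsal EE, with a log2 fold change of 0.71 ± 0.19 (SE; adjusted p = 0.0882), and 12.5 ± 1.26 in ventral SH and 16.7 ± 1.87 in ventral EE, with a log2 fold change of 0.42 ± 0.10 (SE; adjusted p = 0.106). *Crhbp* had log2 fold changes of 0.45 ± 0.13 in dorsal and 0.44 ± 0.11 in ventral DG, with adjusted p of 0.151 and 0.106. *Adcyap1* was at 0.44 ± 0.17 in dorsal DG with an adjusted p of 0.3902, although its SH and EE samples there did not overlap. *Avpr1a*, at 1 to 15 counts per sample, had the largest negative value at -1.70 ± 0.46 in dorsal DG with an adjusted p of 0.09998. None of these 4 genes passed the FDR here, which does not show that they were the same in both housing conditions. *Grp* was called in both regions, and *Crhbp* in ventral DG, in some of the alternative fits described in the closing section.

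*Tac2* was at 0.4303, 0.987, 0.769 and 0.596 CPM in dorsal SH and 1.66, 3.15, 1.38, 0.816 and 0.909 CPM in dorsal EE. In ventral DG it was at 1.31, 1.202, 1.09 and 1.13 CPM in SH and 1.59, 1.31, 0.666, 1.38 and 1.04 CPM in EE. The highest value belonged to dorsal EE replicate 2. In that library 6 of 10 markers of the habenula and thalamus, which lie beneath the dorsal hippocampus, were also at their highest among the 18 samples, among them the habenula genes *Gpr151* at 4.35 CPM, *Chrna3* at 1.12 CPM and *Chrnb4* at 0.746 CPM. *Gpr151* ranged from 0.112 to 3.76 CPM over the other 8 dorsal samples. The sum of the 10 markers was 189 CPM in this library. The sum ranged from 161 to 211 CPM in dorsal SH and from 146 to 189 CPM in dorsal EE. In ventral DG it ranged from 84.3 to 106 CPM. The highest sum, 211 CPM, and 3 of the 10 marker maxima belonged to dorsal SH replicate 1. In that sample *Tac2* had its lowest value, 0.4303 CPM. The log2 fold change of *Tac2* in dorsal DG was 1.19 ± 0.34 (SE; adjusted p = 0.147). Without EE replicate 2 it was 0.79 ± 0.29 with an adjusted p of 0.342. The part of these markers in the *Tac2* values was not tested.

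**Figure D5:**
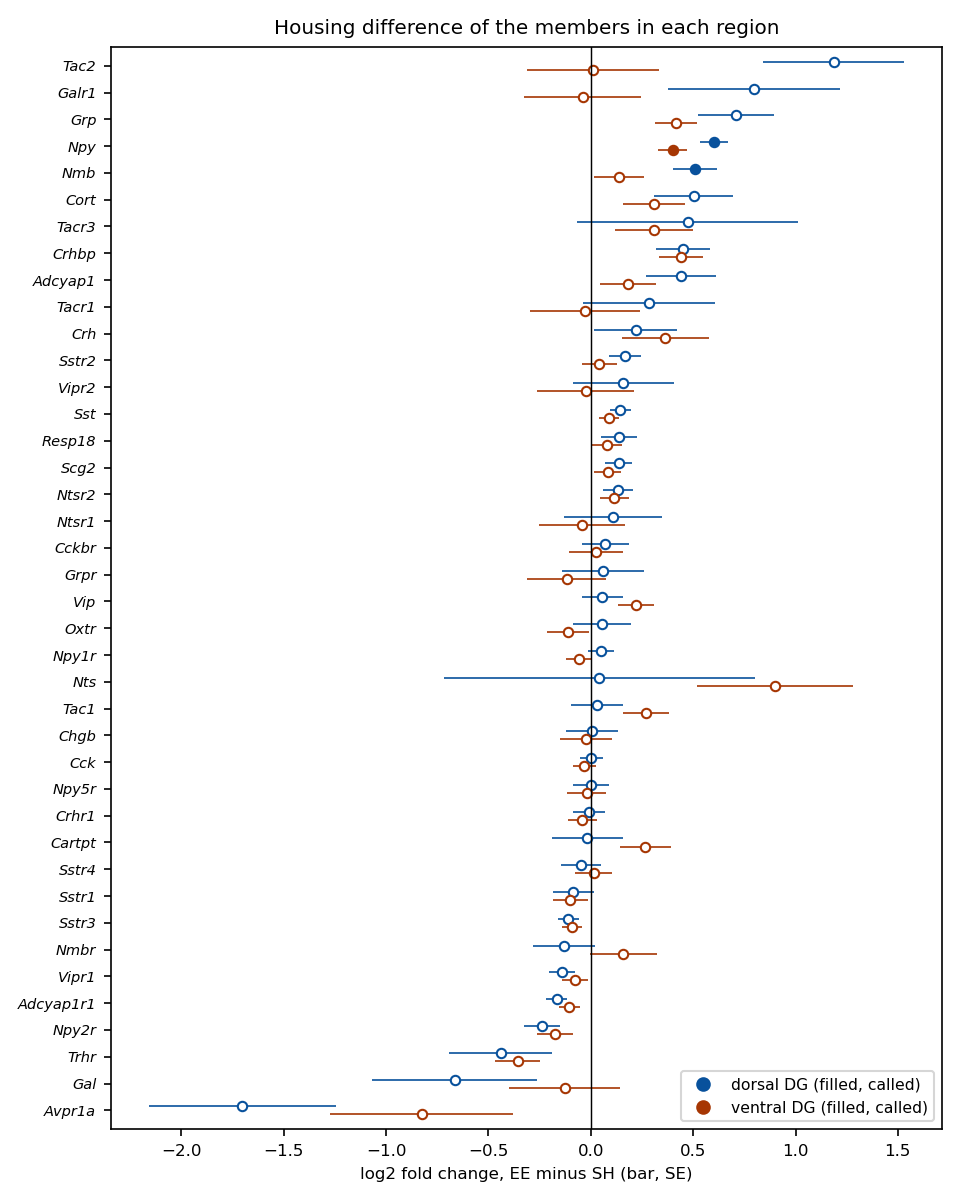
Log2 fold change, EE minus SH, of the 40 tested members in dorsal and ventral DG, ordered by the dorsal value (points; bars, SE; filled points were called). *Npy* is filled in both regions and *Nmb* in dorsal DG alone, and the widest bars belong to members with few counts such as *Nts* and *Tacr3*.

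A test of region by housing asked whether the response to EE differed between dorsal and ventral DG. Of the 40 members 0 were called by edgeR and 0 by DESeq2, beside 0.00587% of all tested genes (the interaction call rate with edgeR), and 2 members had an unadjusted p under 0.05, beside 3.25% of all tested genes. These were *Tac2*, with a difference of 1.18 ± 0.47 on the log2 scale between the EE effect in dorsal and that in ventral DG, and *Nmb*, with 0.37 ± 0.16. The adjusted p from edgeR was 0.9999 for both. For *Npy* the difference was 0.20 ± 0.099, with the same adjusted p. The call of *Nmb* in dorsal DG alone is therefore not shown to differ from its ventral value.

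Members were also set beside other genes of the peptide pathways. Of 17 genes for peptide processing and dense core vesicles, all tested, 2 were called in the dorsal and 4 in the ventral direction, with a median log2 fold change of -0.081 beside -0.0046 over all genes. The called share was 35.3%, beside 30.9% of all tested genes. *Pcsk2* and *Pcsk1*, the convertases that cut peptide precursors, were called in opposite directions, at 0.62 ± 0.051 and -0.73 ± 0.067, and *Scg5*, the chaperone of the PCSK2 enzyme, was called in the ventral direction at -0.51 ± 0.037. Of 13 genes for peptide breakdown 2 were called, a share of 15.4%, beside the same 30.9%. *Trhde*, whose enzyme degrades TRH, was called in the dorsal direction at 0.88 ± 0.071. *Ace*, which cuts several peptides, was called in the ventral direction at -1.47 ± 0.17. The dorsal direction of *Trhde* was opposite to that of *Trhr*. The ventral *Ace* samples ranged from 10.4 to 25.2 CPM. *Ace* and the choroid plexus list described above were both called in the ventral direction. The part of choroid plexus in the *Ace* difference was not tested.

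Of 34 other non-opioid peptide genes in the annotation 11 were tested, and 3 were called in each direction. That is 54.5% of the 11, beside 30.9% of all tested genes. The largest differences were those of *Calca*, the CGRP and calcitonin gene, at -2.16 ± 0.21, *Avp*, the vasopressin precursor, at 1.47 ± 0.31, and *Rln1*, the relaxin precursor, at -1.41 ± 0.27, each at a group mean under 1 CPM. Of 45 other peptide receptor genes 25 were tested, with 13 called in the ventral and 1 in the dorsal direction and a median of -0.30. The called share was 56%, beside the same 30.9%. *Glp2r* and *Glp1r*, the receptors of the proglucagon peptides, led at -2.72 ± 0.13 and -2.47 ± 0.12, followed by *Qrfpr* at -1.70 ± 0.22. *Glp2r* was at 1.43 ± 0.273 CPM in dorsal SH, 1.39 ± 0.209 in dorsal EE, 9.77 ± 1.56 in ventral SH and 8.83 ± 2.12 in ventral EE. In none of these 4 lists was a gene called for housing in either region.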

How the data were processed

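Dorsal and ventral DG RNA of 18 samples was compared, out of 20 deposited. The study dropped an SH sample for *Xist* expression without giving its number in the methods, and SH replicate 3 was left out here, with 789 *Xist* counts in dorsal and 308 in ventral DG where no other sample exceeded 16. The study's list of libraries numbers the SH pools differently from the labels, so this match rests on the *Xist* counts. The authors aligned paired, strand-specific reads to mm10 and deposited counts per gene, unnormalized. Expected counts and TPM of a second table were also deposited by the authors. The submitters' processing notes name Trim Galore 0.4.0, STAR 2.5.1b and RSEM 1.2.30. TPM accounts for transcript length and CPM does not.

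Reverse-strand counts of 17040 genes, those above 10 counts in 2 or more samples, were fitted with TMM scaling and the quasi-likelihood test of edgeR 4.0.16 in R 4.3.3, with the 4 groups in 1 model. The Benjamini-Hochberg adjustment ran over all tested genes. A region result tests the SH and EE differences together and gives their mean, with the SE of that mean. EE results and region results need FDR under 0.05 and a 20% change, and the interaction needs the FDR alone. DESeq2 1.42.0 was an alternative. The steps were tested on simulated counts.

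The members and lists were chosen with earlier results of these data known. Per-sample values are given for members called for EE, the 12 with the largest called regional difference, and the 2 with the smallest interaction p. From the other lists, genes called for EE and the 3 largest called regional differences are named. Medial habenula markers were named after their values were seen, since 6 of 10 peaked in 1 library. The study states that dorsal and ventral samples come from the same mice, and their match into pools by replicate number rests on the labels. Deviations from group means of samples so matched had a mean correlation of 0.0827 over 9 pairs. Replicates are separate pools. No 2 samples of a group agreed within sampling noise. Promoter windows are from RefSeq, and gene symbols from Gencode. Methylation samples were not analysed here. CPM comparisons count fragments of 1 gene, so low counts limit precision most in *Tacr3*, *Nts*, *Galr1*, *Gal* and *Avpr1a*.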

Additional observations from a re-analysis of the deposited data

Results flagged for a closer look

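In the 60 sets of 4 or 5 samples formed by the members with per-sample values and the 4 groups, 3 samples stood far from the others of their group by Dixon's test, and chance gives about 1 in 20. *Cort* was at 2.90 CPM in dorsal EE replicate 4, where the other 4 samples ranged from 1.68 to 1.91 CPM. *Cort* was at 3.04 CPM in ventral SH replicate 1, where the other 3 ranged from 3.69 to 3.73 CPM. *Resp18* was at 15.2 CPM in dorsal EE replicate 2, where the other 4 ranged from 11.3 to 12.4 CPM. In no case did the sample cross into the range of the other region.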

How the results depend on the processing

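The number of members called for region was 31 and ranged from 25 of the 30 members that exceeded 1 TPM in at least 3 samples, to 32 of 40, with no fold change limit, and from 27 to 31 when a pool was left out. In SH it was 27 (25 to 29) and in EE 28 (26 to 28) over all alternatives. The 12 regional differences given by sample kept their direction and their call in each alternative that tested them, but the TPM limit left out *Tacr3*, *Nts*, *Gal* and *Galr1*. For EE in dorsal DG 2 members were called in the main analysis, 4 with the replicate block, DESeq2 or no filter on low counts (*Grp* and *Tac2* being added), 1 with estimated counts, and 1 to 2 when a pool was left out. For EE in ventral DG the count was 1, and it was 3 with all 20 samples, DESeq2 or no filter, 2 with the replicate block, and 0 to 2 when a pool was left out, with 0 without SH replicate 4 or 5. *Grp* was added in each of these 4, at adjusted p of 0.0152 to 0.0406, and *Crhbp* in 3. For EE the block was the replicate number, which SH and EE pools share. Deviations from group means of SH and EE samples of 1 number had a mean correlation of 0.126 over 8 pairs, 7 of them over 0.1, and 9 of 16 samples correlated best with their own number. The 8 pairs ranged from 0.0815 to 0.175, and the mean for dorsal and ventral samples of 1 pool was 0.0827. As no source says that the number marks a shared batch, the number was not taken to pair these samples. Whether it does was not settled. The cause of the larger counts with it was not tested. For region and interaction the block was the pool, and with it region counts were 30, 28 in EE and 29 in SH, and of the calls named in the report that of *Ntsr1* was lost. For the interaction 0 members were called in each fit. Over all genes, EE in dorsal DG had 108 calls, 172 with the replicate block and 70 to 109 when a pool was left out. EE in ventral DG had 41 calls, 87 with the block, 75 with DESeq2, 78 without the filter and 18 to 50 when a pool was left out (18 without SH replicate 4). The interaction had 1 call, 2 with the block and 0 when any pool was left out. RLE size factors, filterByExpr and unstranded counts left the EE counts of members as they were. Depth limits tested members with 10 counts or fewer in most dorsal samples, namely *Tacr3*, *Nts*, *Galr1*, *Gal*, *Avpr1a* and *Tacr1*.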
